A study of Mus musculus with 20 samples.

Results

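The genes described are the subunits, activators, inhibitor and assembly chaperones of the mouse proteasome, taken as every gene symbol that starts with Psm, a letter from a to g and a digit. In all, 50 of the 23992 symbols in the deposited RNA-seq tables met that rule, and where a symbol had several transcripts (5 of the 50) the one with the most reads over the 20 libraries was used. Tregs had been sorted by GFP from spleen and lymph node of B6-Foxp3EGFP mice, a reporter strain in which GFP marks Foxp3+ cells, after enrichment of CD4+ T cells. CD8+ T cells had been isolated with a kit from C57BL/6J mice, although the strain label of the libraries reads C57BL/6N. Both cell types were left unstimulated or were stimulated ex vivo for 90 min or 4 hr with 200 nM cytokine, either IL-2 or IL-2-REH. IL-2-REH is a mutein of IL-2 with substitutions that weaken contact with the common gamma chain, so that it acts as a partial agonist. Each of the 5 Treg groups has 3 libraries, numbered 1 to 3, and each of the 5 CD8+ groups has 1 library, so changes in CD8+ T cells carry no test. The labels do not say whether libraries came from separate mice, and p-values then measure only the spread between these libraries.

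The proteasome degrades proteins tagged with ubiquitin. Its 20S core is a stack of alpha rings, which gate the entrance, and beta rings, which hold the catalytic subunits, and its 19S particle binds ubiquitin, removes it, and unfolds and feeds in the substrate with a ring of ATPases. In lymphocytes and other hematopoietic cells, and in many cells exposed to interferon, the constitutive catalytic subunits Psmb5, Psmb6 and Psmb7 are replaced by the immunoproteasome subunits Psmb8, Psmb9 and Psmb10, which shift the cut sites toward peptides that suit MHC class I. The ring activator PA28, made by Psme1 and Psme2, belongs to the same interferon program, whereas the constitutive subunits are known targets of the stress-activated factor Nfe2l1, which binds antioxidant response elements.

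By role, the 50 genes comprise 8 alpha subunits, 7 constitutive beta subunits, 3 immunoproteasome subunits, 1 thymus-specific beta subunit, 6 ATPases, 3 other base subunits, 8 lid subunits, 5 activator genes, 1 inhibitor and 7 assembly chaperones. The remaining gene, Psmc3ip, encodes a meiotic recombination factor and is not a proteasome part. The 31 members of the standard 26S particle are 14 of the 20S core and 17 of the 19S particle. Subunits of the 19S particle with other names, such as Adrm1, fall outside the rule, and counts and sums for the particle below cover these 17 only. The 50 members are spread over 16 chromosomes, with 10 of them on chromosome 11. In RefSeq GRCm38.p6, Psmb8 (chr17:34198195-34201454, plus strand) and Psmb9 (chr17:34182030-34187330, minus strand) are neighbors in the MHC region. Psmb10 lies at chr8:105935728-105938392 (minus strand). Psmb5 (chr14:54614120-54617995, minus strand) has the thymic gene Psmb11 (chr14:54625310-54629556, plus strand) beside it, and Psme1 (chr14:55578494-55581527, plus strand) lies close to Psme2 (chr14:55587440-55591101, minus strand). For 14 members the annotated gene overlaps another gene, among them Psme1 with Emc9 and Psmd1 with Htr2b, and Psme2b is a near-copy of Psme2. Whether the counting used strand is not stated, so reads of these genes may be shared with the other gene.

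The promoters of 6 genes of the constitutive and immuno forms are shown, 4 of which hold a motif of the pathways named above or of STAT factors, which act downstream of IL-2. Promoters here run from 250 bases before to 50 bases after the annotated start (RefSeq, GRCm38.p6) and are written 5′ to 3′ on the gene's strand, with the motif found in capitals. The entries are Psmb5 (chr14:54617946-54618245, minus strand), Psmb6 (chr11:70525107-70525406, plus strand), Psmb8 (chr17:34197945-34198244, plus strand), Psmb9 (chr17:34187281-34187580, minus strand), Psmb10 (chr8:105938343-105938642, minus strand) and Psme1 (chr14:55578244-55578543, plus strand).
Psmb5: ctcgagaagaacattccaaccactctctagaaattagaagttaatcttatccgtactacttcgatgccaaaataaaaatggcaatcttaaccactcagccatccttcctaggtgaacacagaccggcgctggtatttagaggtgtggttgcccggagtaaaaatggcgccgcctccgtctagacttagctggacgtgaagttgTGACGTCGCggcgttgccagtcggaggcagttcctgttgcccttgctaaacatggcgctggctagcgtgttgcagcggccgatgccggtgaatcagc
Psmb6: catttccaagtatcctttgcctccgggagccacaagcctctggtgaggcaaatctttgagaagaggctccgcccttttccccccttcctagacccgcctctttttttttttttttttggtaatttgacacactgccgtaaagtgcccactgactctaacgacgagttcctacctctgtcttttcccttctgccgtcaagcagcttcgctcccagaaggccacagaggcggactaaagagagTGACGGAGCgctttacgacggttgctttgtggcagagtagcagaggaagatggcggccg
Psmb8: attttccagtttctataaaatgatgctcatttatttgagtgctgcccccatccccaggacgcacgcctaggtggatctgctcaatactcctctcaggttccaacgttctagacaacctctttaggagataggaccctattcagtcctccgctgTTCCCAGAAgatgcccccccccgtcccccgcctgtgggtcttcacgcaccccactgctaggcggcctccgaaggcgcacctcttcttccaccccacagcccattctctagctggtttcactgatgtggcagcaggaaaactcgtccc
Psmb9: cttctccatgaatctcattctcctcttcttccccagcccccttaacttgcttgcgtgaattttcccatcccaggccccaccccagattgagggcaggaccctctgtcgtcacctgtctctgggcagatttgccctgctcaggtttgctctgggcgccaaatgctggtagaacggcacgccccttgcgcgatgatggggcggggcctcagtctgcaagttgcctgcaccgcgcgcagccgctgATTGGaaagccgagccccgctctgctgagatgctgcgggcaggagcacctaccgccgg
Psmb10: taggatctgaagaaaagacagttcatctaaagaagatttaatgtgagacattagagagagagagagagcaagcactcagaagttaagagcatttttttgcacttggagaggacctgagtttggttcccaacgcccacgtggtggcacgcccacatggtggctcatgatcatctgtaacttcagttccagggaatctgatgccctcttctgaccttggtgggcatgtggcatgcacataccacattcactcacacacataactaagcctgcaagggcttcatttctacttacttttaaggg
Psme1: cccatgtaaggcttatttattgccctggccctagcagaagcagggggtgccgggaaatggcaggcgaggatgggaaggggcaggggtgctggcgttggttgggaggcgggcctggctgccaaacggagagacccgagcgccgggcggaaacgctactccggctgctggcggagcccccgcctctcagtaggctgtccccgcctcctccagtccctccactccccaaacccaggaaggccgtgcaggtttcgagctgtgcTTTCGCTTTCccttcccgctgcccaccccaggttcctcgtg
The capitals mark an antioxidant response element core (TGACNNNGC) in Psmb5, 47 bases before the start, and in Psmb6, 9 bases before it. In Psmb8 they mark a STAT core (TTCNNNGAA) 97 bases before the start, and in Psme1 an interferon response core (read on the other strand) just after it. Psmb9 held a CCAAT box, read on the other strand, 8 bases before the start and none of the others searched, and Psmb10 held none of the motifs searched in this window.

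Of the 50 members, 42 had a promoter in the RefSeq table, giving 45 promoters, among 32851 promoters of all genes. With both strands searched, the antioxidant core occurred in 6 of the 45 (13.3%), close to the 12.4% of all promoters of that length. The STAT core occurred in 3 (6.67%, against 8.30%) and the CCAAT box in 15 (33.3%, against 37.4%). The interferon core occurred in 5 (11.1%, against 3.44%), those of Psmd4, Psmd9, Psmb3, Psmg4 and Psme1, with no immunoproteasome subunit among them. These are matches of letters and were not tested.

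Libraries held 20201392 to 63903764 reads on genes in Tregs and 38201667 to 45189835 in CD8+ T cells, and no 2 libraries were identical. Foxp3, the defining Treg factor, was at 65.2 to 252 RPKM (reads scaled to transcript length and library depth, so comparable between genes) in Tregs and 0.5 to 1.0 in CD8+ T cells. Cd8a was at 0.1 to 1.8 RPKM in Tregs and 103 to 256 in CD8+ T cells. The IL-2 targets Cish, Socs1, Socs2 and Il2ra rose in Tregs after 4 hr of IL-2, by 1.15 (Il2ra) to 2.36 (Socs1) on the log2 scale. Treg libraries of replicate 3 held erythroid and neutrophil genes (summed 98.0 to 172 and 60.7 to 243 RPKM) that were at or below 15.6 and 4.71 RPKM in the other Treg libraries. A list of 10 macrophage and monocyte genes summed to 25.5, 113 and 91.1 RPKM in the 3 unstimulated Treg libraries and 352 in the CD8+ one, mostly Ly6c2, and to 21.1 to 59.5 in every stimulated Treg library and 60.9 to 148 in CD8+. Within it the complement genes C1qa, C1qb and C1qc were at 0.788 to 12.3 RPKM in unstimulated Tregs and at 0 to 4.75 in stimulated ones.

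A pair of Treg libraries stood apart and bear on what follows. Unstimulated replicate 1 differed from replicates 2 and 3 by over 0.5 on the log2 scale at 46.6% and 39.2% of genes, whereas replicates 2 and 3 differed at 9.60%. A smaller split of this kind was present at 90 min, with 24.7% and 34.6% against 9.59% for IL-2. With IL-2-REH at 90 min the shares were 27.0% and 31.5% against 5.77%. Leaving out only unstimulated replicate 1 therefore keeps the stimulated libraries of replicate 1 without their same-numbered unstimulated library. In the IL-2 4 hr library of replicate 3, the 31 standard subunits scattered around their usual levels with an SD of 0.730 log2 units, against 0.0774 to 0.236 in the other 14 Treg libraries. There Psmb2 was at 8.18 RPKM and Psma3 at 15.8, both far under every other Treg library, while Psmc5 reached 84.1. The deviation rose with the GC content of the transcript (Pearson r = 0.566 over the 31 subunits and 0.416 over 10308 genes), a description within 1 library in which genes are not independent. Such correlations were not particular to this library. Over the 31 subunits r was -0.672 in unstimulated replicate 3 and 0.606 in IL-2 4 hr replicate 2. Over all genes it was 0.402 in IL-2-REH 4 hr replicate 3 and -0.391 in IL-2 90 min replicate 3. In CD8+ T cells r over the 31 subunits was 0.447 in the IL-2 4 hr library and -0.170 in the IL-2-REH 4 hr library. The part of GC content in the CD8+ comparisons below was not tested.

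**Figure D1:**
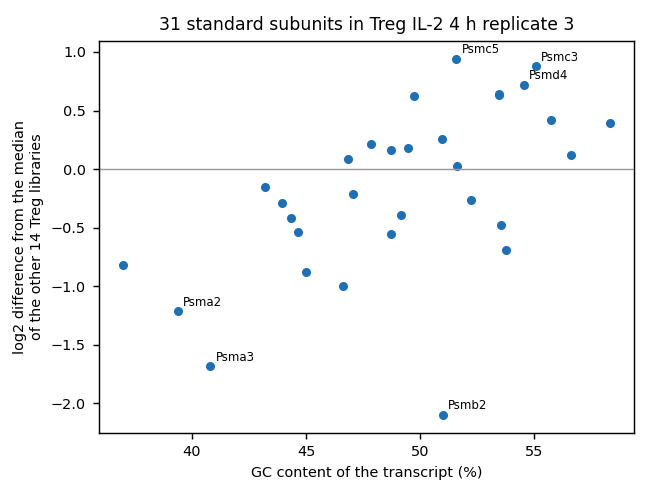
Each point is 1 of the 31 standard subunits; the horizontal axis is the GC content of its transcript (%) and the vertical axis the log2 difference between Treg IL-2 4 hr replicate 3 and the median of the other 14 Treg libraries. Subunits with low GC such as Psma2 and Psma3 lay far below 0, Psmc5, Psmc3 and Psmd4 lay above it, and Psmb2 at -2.10 was the lowest at a middle GC content.

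Levels differed strongly by role. Over the 20 libraries the 31 standard subunits had mean levels of 23.9 (Psmd12, a lid subunit) to 88.1 RPKM (Psmb1, a non-catalytic beta subunit), a 3.69-fold span with a median of 44.6, and all 31 ranked within the top 2188 of 23992 symbols. The core subunits had a median of 52.0 RPKM and the 19S subunits 34.5. The members together took 0.331% to 0.537% of the reads in each library.

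Psmb8 and the PA28 genes stood at the top. Psmb8, an immunoproteasome subunit, averaged 111 RPKM, above each of the 31 standard subunits and above Psmb5, the subunit it replaces, at 40.0. Psmb9 averaged 45.1 RPKM beside 46.0 for its counterpart Psmb6, and Psmb10 averaged 28.7 beside 46.4 for Psmb7. The PA28 genes Psme1 and Psme2 averaged 162.6 and 98.6 RPKM, above Psme3, the nuclear PA28 gamma, at 37.9 and Psme4, the large activator PA200, at 11.9.

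Regulators and assembly factors were low. The 7 assembly chaperones, which help build the rings or the base and leave the finished particle, ran from 5.30 (Psmd9) to 12.01 RPKM (Psmd5) with a median of 8.59. Psmf1, the inhibitor PI31, averaged 7.24. The testis-specific alpha subunit Psma8 averaged 0.0210 RPKM and was the 1 member below the count minimum, so that 49 members entered the tests.

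Psmb11, the beta subunit of thymic cortical epithelium, averaged 1.83 RPKM and differed by replicate number. In replicate 1 it was at 3.83 unstimulated, 2.46 and 3.14 with IL-2 and IL-2-REH at 90 min, and 8.54 and 8.48 at 4 hr. In replicate 2 all 5 libraries lay between 0.378 and 0.515, and in replicate 3 they were at 0.310, 0.726, 0.378, 2.57 and 1.17 in the same order. The libraries at 4 hr were thus above those at 90 min in all 3 replicates, and the change from 90 min to 4 hr did not pass the test (1.75 ± 1.31 with IL-2, adjusted p = 0.493, and 1.40 ± 1.29 with IL-2-REH, adjusted p = 0.629). CD8+ libraries lay between 0.433 and 0.730.

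**Figure D2:**
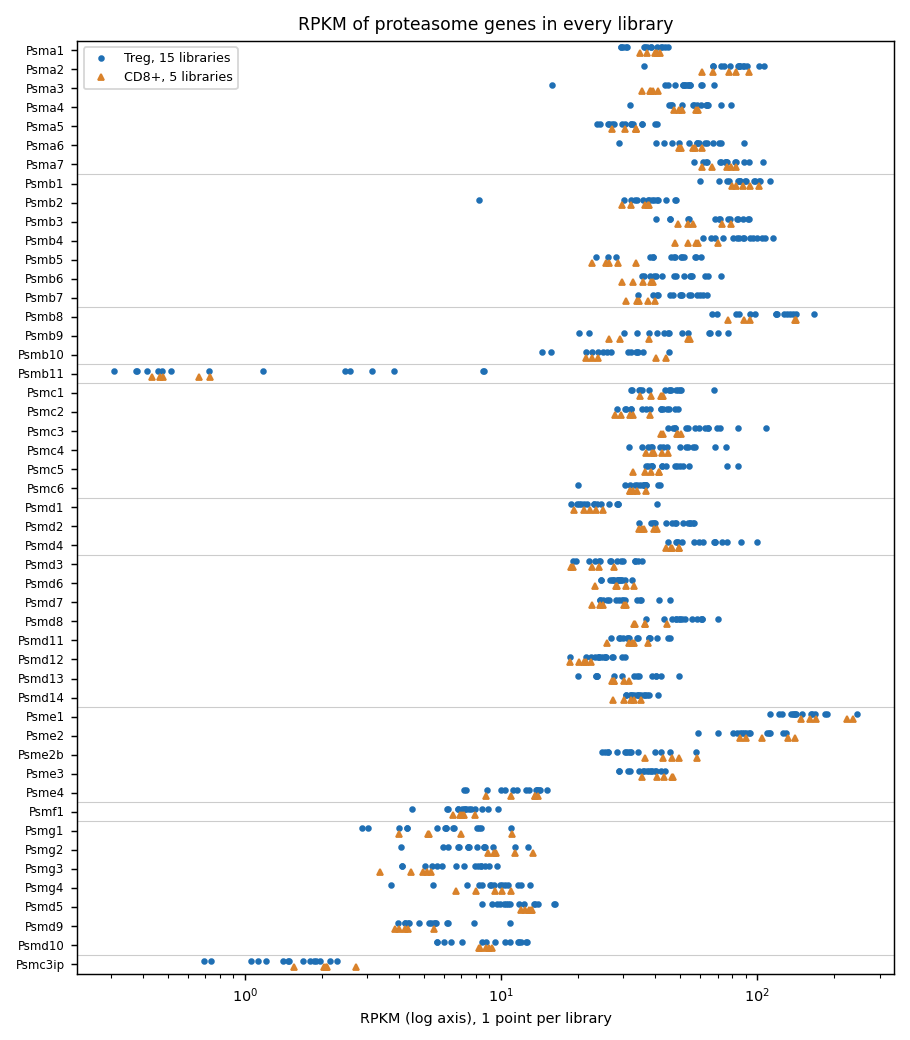
RPKM (log axis) of 49 proteasome genes by role, 1 blue point per Treg library and 1 orange triangle per CD8+ library; Psma8, near 0, is left out. Psmb8, Psme1 and Psme2 sit at the right, the chaperones and Psmf1 far to their left, and Psmb11 spreads from 0.310 to 8.54 among Tregs.

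After 90 min with either cytokine the immunoproteasome genes were lower in 2 of the 3 Treg replicates and in CD8+ T cells, and higher in Treg replicate 1. Psmb8, the chymotrypsin-like immuno subunit, was at 84.9, 167.1 and 131 RPKM in unstimulated Treg replicates 1, 2 and 3. It was at 127, 94.0 and 66.7 after 90 min of IL-2 and at 118, 82.6 and 69.3 after 90 min of IL-2-REH. The groups overlap because the unstimulated library of replicate 1 was the lowest of its group and its stimulated libraries were the highest of theirs. The CD8+ libraries had 141 RPKM of Psmb8 unstimulated and, at 90 min, 93.3 for IL-2 and 77.2 for IL-2-REH.

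Psmb9 behaved alike, from 40.6, 76.9 and 53.8 RPKM in unstimulated Tregs to 64.8, 37.7 and 20.2 at 90 min of IL-2 and 65.1, 30.1 and 22.0 with IL-2-REH. CD8+ T cells had 54.8, 29.2 and 26.4 RPKM in the same 3 conditions. Psmb10 was at 26.8, 45.1 and 33.7 RPKM in unstimulated Tregs, 35.7, 23.9 and 14.45 at 90 min of IL-2, 32.3, 22.7 and 15.7 at 90 min of IL-2-REH, and at 44.0, 23.8 and 21.4 in CD8+ T cells. Again Treg replicate 1 alone was higher than its unstimulated library.

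By edgeR's quasi-likelihood test over 15009 genes, the change in Tregs at 90 min of IL-2 was -0.27 ± 0.23 (log2 fold change ± SE) for Psmb8, -0.37 ± 0.34 for Psmb9 and -0.39 ± 0.26 for Psmb10, with adjusted p of 0.636, 0.671 and 0.535. With IL-2-REH it was -0.36 ± 0.23, -0.44 ± 0.34 and -0.45 ± 0.26, with adjusted p of 0.560, 0.631 and 0.517. None passed the threshold of 0.05. Without unstimulated replicate 1, and with the replicate number as a block, Psmb9 passed at 90 min of IL-2-REH (-0.82, adjusted p = 0.046), where 25.4% of all genes passed.

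By 4 hr of IL-2 the immunoproteasome genes were closer to their unstimulated levels in Treg replicates 2 and 3 and in CD8+ T cells than at 90 min. Psmb8 was then at 119, 134 and 142 RPKM in Tregs and 140 in CD8+ T cells, against 119, 97.7 and 137 and, in CD8+ T cells, 88.7 with IL-2-REH. Psmb9 was at 45.4, 70.0 and 33.9 with IL-2 and 50.9, 44.8 and 43.1 with IL-2-REH, and Psmb10 at 21.5, 34.1 and 33.8 and at 25.9, 25.0 and 31.2. The CD8+ libraries had 53.8 and 37.7 RPKM of Psmb9 and 40.3 and 22.7 of Psmb10. The Treg groups overlap for all 3 genes.

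The constitutive catalytic genes did not follow this course. Psmb5 was at 47.5, 39.0 and 23.4 RPKM in unstimulated Tregs, 57.1, 39.1 and 26.1 at 90 min of IL-2 and 47.6, 57.8 and 50.9 at 4 hr, each 4 hr library just or well above all unstimulated ones. With IL-2-REH it was at 60.0, 38.1 and 28.1 at 90 min and 51.7, 50.5 and 46.0 at 4 hr, where 1 library fell inside the unstimulated range. The change at 4 hr was 0.56 ± 0.27 with IL-2 (adjusted p = 0.305) and 0.42 ± 0.27 with IL-2-REH (adjusted p = 0.555). Without unstimulated replicate 1 it was 0.91 with IL-2 (adjusted p = 0.044), where 8.87% of all genes passed.

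Psmb6, the caspase-like subunit, was at 48.2, 39.7 and 35.6 RPKM in unstimulated Tregs and at 54.4, 51.6 and 72.4 after 4 hr of IL-2-REH, without overlap. With IL-2 at 4 hr it was at 47.3, 55.3 and 64.2, the first inside the unstimulated range. Psmb7, the trypsin-like subunit, was at 54.2, 46.8 and 41.1 unstimulated and at 50.5, 54.9 and 34.1 and 59.8, 49.8 and 58.1 after 4 hr of IL-2 and IL-2-REH, and the groups overlap. The 5 CD8+ libraries spanned 22.6 to 33.7 RPKM for Psmb5, 29.8 to 39.1 for Psmb6 and 30.7 to 39.8 for Psmb7.

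The ratio of the 3 immuno to the 3 constitutive catalytic genes, on summed RPKM, was 1.83 ± 0.71 (SD, n = 3) in unstimulated Tregs. Its libraries were at 1.02, 2.30 and 2.18, so the first lay apart. The ratio was 1.16 ± 0.155 and 1.08 ± 0.0914 at 90 min of IL-2 and IL-2-REH, and 1.37 ± 0.0785 and 1.16 ± 0.0510 at 4 hr. At 4 hr the 3 IL-2 libraries (1.28, 1.42, 1.403) lay above the 3 IL-2-REH libraries (1.18, 1.10, 1.198), a difference of -0.205 for IL-2-REH minus IL-2. The 2-sided exact permutation p was 0.1, the smallest that 3 against 3 libraries allow, and 0.4 after Benjamini-Hochberg adjustment over 8 comparisons. The CD8+ ratio was 2.42 unstimulated, 1.36 and 1.34 at 90 min, and then 2.199 for IL-2 against 1.80 for IL-2-REH at 4 hr.

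**Figure D3:**
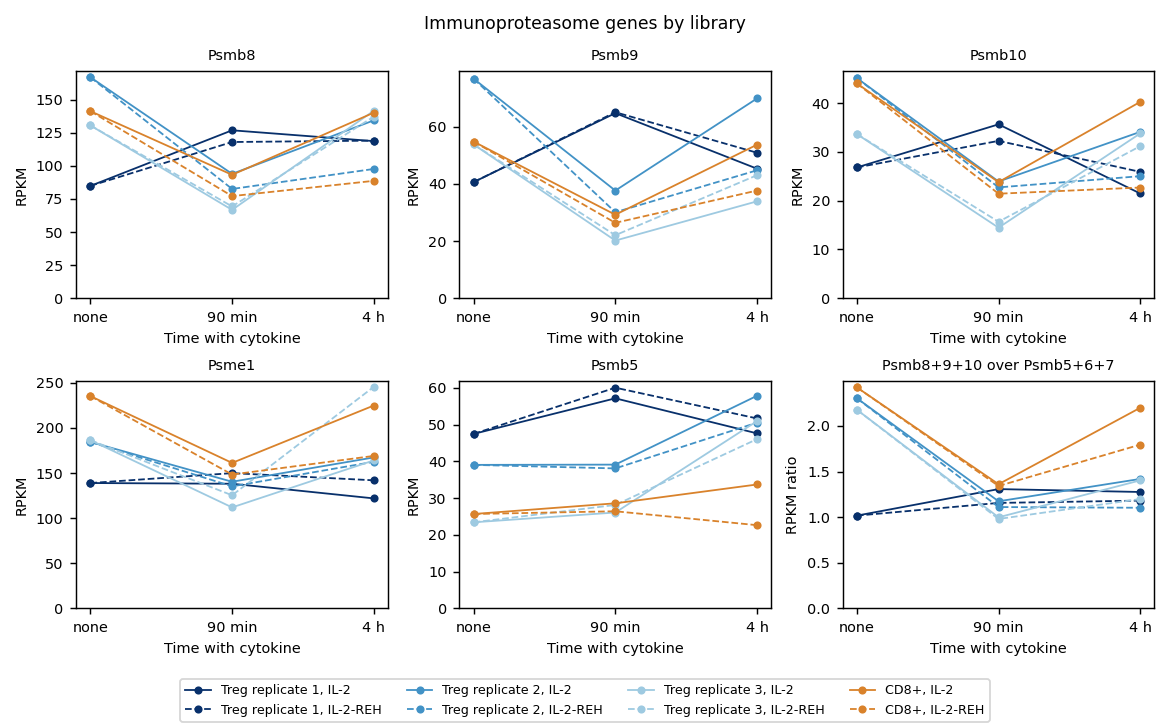
RPKM of Psmb8, Psmb9, Psmb10, Psme1 and Psmb5, and the ratio of summed immuno to summed constitutive catalytic genes, against time with cytokine; each line is 1 Treg replicate number or the CD8+ T cells, solid for IL-2 and dashed for IL-2-REH, starting from the shared unstimulated library. At 90 min Treg replicates 2 and 3 and CD8+ lie lower in the immuno panels while Treg replicate 1 does not, and at 4 hr the solid CD8+ line is back near its start while the dashed one is lower.

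The PA28 genes had a similar course at lower amplitude. Psme1 was at 139, 184 and 186 RPKM in unstimulated Tregs, 138, 140 and 112 at 90 min of IL-2 and 150, 135 and 125 with IL-2-REH. In CD8+ T cells it was at 235, 161.2 and 148. With IL-2 at 90 min Psme1 and Psme2, together with the copy Psme2b, were lower in all 3 same-numbered pairs, a pattern shown by 17.4% of all genes, and Psme1 had a fitted change of -0.24 ± 0.22 (adjusted p = 0.675). At 4 hr Psme1 was at 122, 167.3 and 163.96 RPKM with IL-2, and IL-2-REH gave 142, 162.4 and 246.

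The T-cell genes Cd3e, Cd3g, Cd3d and Lck summed to 601, 868 and 936 RPKM in unstimulated Treg replicates 1, 2 and 3, to 502, 560 and 525 at 90 min of IL-2 and to 434, 412 and 355 at 4 hr. The macrophage and monocyte genes summed to 23.3, 55.9 and 52.4 RPKM at 90 min and to 21.1, 43.1 and 29.3 at 4 hr of IL-2. Both sums were lower at 90 min in replicates 2 and 3, as the immuno genes were, and also in replicate 1, and they were lower still at 4 hr. Their part in these values was not tested. In bulk samples fewer cells of a type and less RNA per cell cannot be told apart. Among 12 genes listed for class I presentation and the interferon response, none passed the test in any comparison with unstimulated cells. Their median change at 90 min of IL-2 was 0.05. At 4 hr of IL-2 the members with the largest changes were Erap1, a peptide-trimming protease (-0.71, adjusted p = 0.228), B2m, the class I light chain (-0.60), the factor Irf1 (-0.48) and Pdia3 (-0.39). B2m was at 230 RPKM in the IL-2 4 hr library of replicate 3 and at 1346 to 1908 in the other Treg libraries.

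At 90 min the 49 tested genes showed small differences from unstimulated Tregs, and none passed with either cytokine. With IL-2, 0.853% of all genes passed, and with IL-2-REH 0.0933%. At an unadjusted p under 0.05 there were 3 members with IL-2 (13.8% of all genes) and 1 with IL-2-REH (11.4%). DESeq2 called none after adjustment, where it called 4.38% and 0.961% of all genes. Unadjusted, DESeq2 had 4 and 2 members, with the share of all genes not given here. The median change of the members was 0.11 for IL-2 and 0.14 for IL-2-REH, beside -0.06 and -0.05 for all genes, with 31 and 34 of the 49 above 0 (45.0% and 46.2% of all genes).

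The highest changes belonged to lid and activator genes. Psmd11, a lid subunit whose level is known to limit assembly of the 26S particle, was at 28.8, 29.0 and 26.8 RPKM in unstimulated Tregs, 37.8, 31.6 and 33.9 after 90 min of IL-2 and 37.9, 31.2 and 34.2 after 90 min of IL-2-REH. All 6 stimulated libraries lay above the unstimulated ones, and CD8+ T cells had 25.96, 37.5 and 32.9. The fitted change was 0.42 ± 0.19 with each cytokine, with adjusted p of 0.342 and 0.425. Psme4 was at 11.2, 12.5 and 8.81 RPKM unstimulated and 15.2, 13.8 and 13.7 with IL-2, without overlap (0.53 ± 0.21, adjusted p = 0.281), and at 14.2, 13.8 and 11.6 with IL-2-REH, with overlap. CD8+ T cells had Psme4 at 8.76 unstimulated and 13.6 with each cytokine. Psmd7 was the third gene without overlap at 90 min of IL-2 (0.39 ± 0.22, adjusted p = 0.449). For comparison, 7.14% of all genes lay higher without overlap after IL-2 and 5.72% after IL-2-REH, where Psmd11 was the single member. No member was lower without overlap at 90 min, where 5.52% and 4.24% of all genes were. Without unstimulated replicate 1, 4 members were higher and 7 lower without overlap after IL-2 (18.0% and 33.9% of all genes), and 2 and 9 after IL-2-REH (17.02% and 33.9%).

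The lowest changes belonged to a chaperone. Psmg1, a chaperone of alpha ring assembly, was at 4.00, 10.9 and 8.39 RPKM in unstimulated Tregs, 6.07, 4.31 and 2.86 at 90 min of IL-2 and 6.02, 4.28 and 3.03 at 90 min of IL-2-REH. As for the immuno genes, replicate 1 was higher and replicates 2 and 3 lower than unstimulated, and CD8+ T cells went from 10.99 to 5.18 and 4.01. The fitted changes were -0.67 ± 0.32 (adjusted p = 0.376) and -0.66 ± 0.32 (adjusted p = 0.450). At 4 hr Psmg1 was at 6.53, 6.11 and 8.204 with IL-2, above all 3 libraries at 90 min. Without replicate 1 Psmg1 passed at 90 min with both cytokines, where 17.3% and 15.7% of all genes passed.

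By 4 hr more 19S genes than core genes lay above the unstimulated range in Tregs. With IL-2, 9 of the 17 particle subunits (Psmc1, Psmc2, Psmc3, Psmc5, Psmd1, Psmd4, Psmd7, Psmd11 and Psmd13) and 2 of the 14 core subunits (Psma7 and Psmb5) were higher in all 3 libraries than in any unstimulated one. With IL-2-REH the counts were 11 of 17, with Psmc4 and Psmd8 in addition to those 9, and 4 of 14 (Psma5, Psma7, Psmb2 and Psmb6). Counting the chaperones Psmg3 and Psmd9, and with IL-2-REH Psmd10, 13 and 18 of the 49 members were higher without overlap, where 5.98% and 7.68% of all genes were. With IL-2 Psmb1 was lower without overlap, as 8.71% of all genes were, and its lowest library was replicate 3. Without unstimulated replicate 1, 15 members were higher without overlap with IL-2 (13.3% of all genes), with 10 of 17 in the particle and 3 of 14 in the core, and 23 with IL-2-REH (17.3%), with 12 of 17 and 7 of 14. In each of these comparisons 8 members were then lower (28.0% and 25.0%). Without IL-2 4 hr replicate 3, 16 were higher with IL-2 (10.4%), with 9 of 17 and 4 of 14, and 1 lower (10.6%), and without both libraries 22 were higher (20.6%), with 11 of 17 and 8 of 14. The difference between particle and core was not tested.

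None of these changes passed the edgeR test. At 4 hr 0 of 49 members passed with IL-2, where 2.27% of all genes did, and 0 of 49 with IL-2-REH, where 0.313% did. At an unadjusted p under 0.05 there were 11 members (17.7% of all genes) and 6 members (13.3%), and DESeq2 also called 0 in both (6.8% and 4.37% of all genes). Unadjusted, DESeq2 had 13 and 6 members, with the share of all genes not given here. The members' median was 0.05 for IL-2 and 0.22 for IL-2-REH, beside 0.00 and 0.01 over all genes, with 27 and 36 of 49 above 0 (49.9% and 51.1% of all genes). Without IL-2 4 hr replicate 3, none passed with IL-2 after adjustment, where 1.01% of all genes did, and none at the unadjusted level. The members' median was then 0.15, and 35 lay above 0. For that fit the unadjusted share, median and share above 0 over all genes are not given here. These values thus cannot be read as particular to the members. Without IL-2 4 hr replicate 3 and unstimulated replicate 1 together, again 0 passed with IL-2, where 7.27% of all genes did.

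The lid subunit Psmd7 had the lowest adjusted p of any member, 0.162, for a change of 0.62 ± 0.22 at 4 hr of IL-2, which was 0.36 without IL-2 4 hr replicate 3. It was at 26.3, 25.9 and 24.4 RPKM unstimulated, 30.5, 35.3 and 45.5 with IL-2 and 29.6, 29.8 and 41.4 with IL-2-REH, all above the unstimulated range. The ATPase Psmc4 was at 44.5, 35.5 and 31.6 RPKM unstimulated, 43.0, 56.9 and 68.4 with IL-2 and 49.8, 52.9 and 75.6 with IL-2-REH. Only the first IL-2 library fell inside the unstimulated range, and the fitted changes were 0.66 ± 0.25 (adjusted p = 0.196) and 0.67 ± 0.25 (adjusted p = 0.255). Psmc4 passed without unstimulated replicate 1 with both cytokines (0.91 and 0.92), where 8.87% and 6.93% of all genes passed. Without IL-2 4 hr replicate 3 its change with IL-2 was 0.40.

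Psmd11 stayed high at 4 hr, at 31.04, 44.8 and 38.2 RPKM with IL-2 and 30.004, 40.8 and 45.5 with IL-2-REH. Psmd4, the ubiquitin receptor of the base, was at 59.3, 56.7 and 48.8 RPKM unstimulated, 61.4, 67.6 and 99.98 with IL-2 and 68.4, 68.4 and 86.5 with IL-2-REH. Psmd1, the largest base subunit, was at 20.4, 21.1 and 20.1 RPKM unstimulated and 23.7, 26.4 and 40.5 with IL-2-REH (0.57 ± 0.22, adjusted p = 0.270). For Psmd11 and Psmd1 the replicate 1 library was the lowest of each of these stimulated groups. The ATPase Psmc5 had a change of 0.67 ± 0.29 with IL-2 (adjusted p = 0.245), with 84.1 RPKM in replicate 3 and 44.0 and 51.1 in replicates 1 and 2, against 38.5 to 42.5 unstimulated, and the change was 0.24 without that library.

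Among the chaperones the values ran in both directions with IL-2 at 4 hr. Psmd9, a base chaperone, was at 5.21, 4.39 and 4.21 RPKM unstimulated and 5.50, 5.50 and 10.8 with IL-2 (0.75 ± 0.31, adjusted p = 0.225). The core chaperones Psmg2 and Psmg4 had the lowest changes, -0.49 ± 0.26 (adjusted p = 0.335) and -0.47 ± 0.31 (adjusted p = 0.451), and both were lowest in replicate 3, at 4.06 and 3.71 RPKM. Psmd5, another base chaperone, was the third lowest at -0.39 ± 0.17 (adjusted p = 0.262), and Psmg3, another core chaperone, lay higher without overlap. Without replicate 3 of that group the changes were 0.25 for Psmd9, -0.26 for Psmg2 and -0.19 for Psmg4.

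Summed over genes, the 19S particle changed by 0.06, 0.28 and 0.56 on the log2 scale in Treg pairs 1, 2 and 3 with IL-2 at 4 hr, and by 0.18, 0.21 and 0.66 with IL-2-REH. The core changed by -0.01, 0.13 and -0.34 with IL-2, the last in the library that stood apart, and by 0.14, 0.02 and 0.50 with IL-2-REH. In CD8+ T cells the 19S sum changed by 0.05 and -0.12 and the core sum by -0.05 and -0.35.

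**Figure D4:**
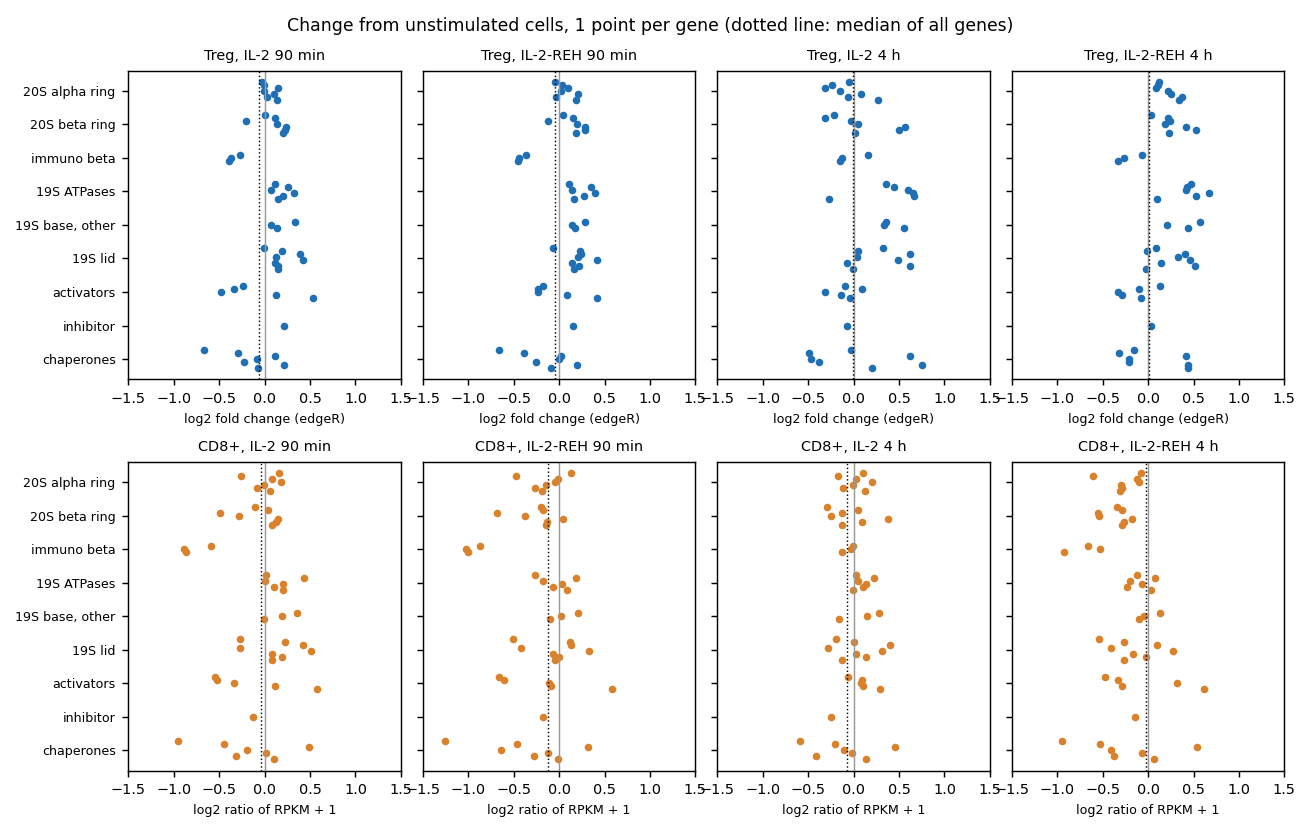
Log2 change from unstimulated cells by role, 1 point per gene, in Tregs (top, edgeR fold change over 3 libraries a group) and CD8+ T cells (bottom, ratio of RPKM + 1 from 1 library a group); the dotted line is the median of all genes, and Psma8, Psmb11 and Psmc3ip are left out. The immuno beta genes lie left of 0 at 90 min in both cell types, and at 4 hr most 19S points of Tregs lie right of 0 while those of CD8+ T cells with IL-2-REH lie around or left of it.

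The heat map of single libraries shows how much of the variation followed the replicate number. Same-numbered Treg libraries deviated together from their group means, most visibly for Psmb5 (47.5 to 60.0 RPKM in all replicate 1 libraries, and 23.4 to 28.1 in replicate 3 until 90 min) and Psmb11. With the replicate number as a block, still 0 of the 49 members passed in every comparison, while the share of all genes passing at 4 hr of IL-2 rose from 2.27% to 6.92%. With the block and without unstimulated replicate 1, 4 members passed at 90 min of IL-2 (Psmd11 and Psme4 higher, Psme2b and Psmg1 lower) where 26.9% of all genes passed, 10 at 4 hr of IL-2 (9 of them higher) where 21% did, 5 at 90 min of IL-2-REH where 25.4% did and 7, all higher, at 4 hr of IL-2-REH where 16.7% did. As a share of the 49, each of these counts is below the share of all genes.

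**Figure D5:**
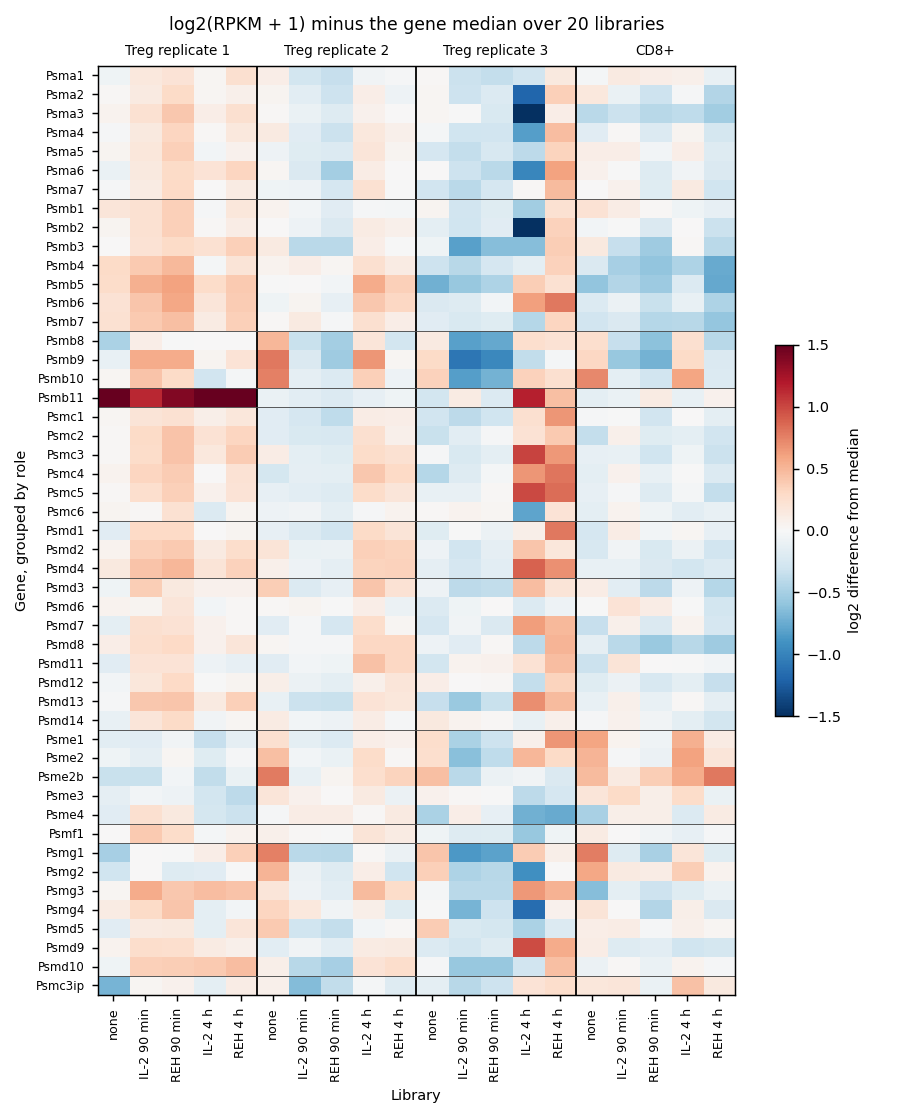
Color gives log2(RPKM + 1) minus the gene's median over the 20 libraries, capped at 1.5 in either direction, for 49 genes (rows, by role; Psma8 left out) and 20 libraries (columns, by Treg replicate number and then CD8+). The IL-2 4 hr library of Treg replicate 3 shows deep blue at Psma2, Psma3 and Psmb2 beside red at Psmc3, Psmc5 and Psmd9, and Psmb11 is red throughout Treg replicate 1.

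Whether the partial agonist differed from IL-2 was tested directly in Tregs. No member passed at 90 min, where 0.0133% of all genes did, or at 4 hr, where 0.0267% did, and none had an unadjusted p under 0.05 by edgeR at either time. DESeq2 called none (0.15% and 0.404% of all genes), nor did edgeR with the replicate block (0.0133% and 0.0666%). At 90 min the estimates for the 31 standard subunits ran from -0.14 to 0.10 with a median of 0.04, and their 95% intervals together spanned -0.68 to 0.77. The interval of every subunit thus stayed within a 2-fold difference either way. At 4 hr the median was 0.12, the intervals spanned -0.70 to 1.27, and 29 of 31 stayed within 1 log2 unit. Without overlap between the cytokines, IL-2-REH was higher for Psme2b at 90 min (2.42% of all genes) and for Psmc6 at 4 hr (5.43%).

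The highest estimates at 4 hr were those of Psmb2 (0.54 ± 0.37), Psma6 (0.44 ± 0.26) and Psma3 (0.39 ± 0.31). They rested on pair 3, with log2 ratios of 2.41, 1.58 and 1.74, and without IL-2 4 hr replicate 3 they were 0.12, 0.18 and 0.03. Psmd9 (-0.32), Psmb11 (-0.28) and Psmd3 (-0.24) were lowest, and without that library they were at 0.18, -0.48 and -0.08. Without it IL-2-REH was higher without overlap for 2 members (7.75% of all genes). At 90 min the extremes were Psmd7 (-0.14), Psme4 (-0.12) and Psmg3 (-0.10) at the low end and Psme2b (0.26), Psmc3ip (0.23) and Psme2 (0.11) at the high end. Between 90 min and 4 hr no member passed with either cytokine (0% of all genes did, or 3.25% and 2.03% by DESeq2, which called no member). With each cytokine 2 members had an unadjusted p under 0.05, and the share of all genes at that level is not given here. None passed for the interaction of cytokine and time. Psme4 was the member with the lowest change from 90 min to 4 hr with IL-2 (-0.57 ± 0.21, adjusted p = 0.224) and with IL-2-REH (-0.50 ± 0.21, adjusted p = 0.309).

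In CD8+ T cells the values with the 2 cytokines differed less at 90 min than at 4 hr, and most members were lower with IL-2-REH at both times. These are values from 1 library each with no replicate check. Same-group Treg libraries differed by over 0.5 at 1 to 27 of the 49 members, with a median of 9. Over all genes the share was 5.77% to 46.6%, with a median of 28.5%. At 90 min 8 of the 48 members at 1 RPKM or more differed from the unstimulated library by over 0.5 (log2 ratio of RPKM + 1) with IL-2, where 31.6% of all genes did, and 10 with IL-2-REH, where 35.2% did. With IL-2 these were Psmd11 (0.51) and Psme4 (0.58) on the high side and Psmb8 (-0.60), Psmb9 (-0.89), Psmb10 (-0.86), Psme1 (-0.54), Psme2 (-0.53) and Psmg1 (-0.96) on the low side. The IL-2-REH library had 9 on the low side (23.3% of all genes), Psmb3, Psmd3 and Psmg4 besides those 6. Its median over all genes was -0.12, relative to which 7 remained (17.3%).

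At 4 hr with IL-2 only Psmg1 (-0.59) of the 48 was past 0.5, where 20.8% of all genes were. With IL-2-REH 11 were, where 29.2% of all genes were: Psme4 (0.61) and Psmg3 (0.54) on the high side and 9 on the low side, which were the 3 immuno genes, Psma2, Psmb3, Psmb4, Psmd3, Psmg1 and Psmg2. In that library 9 of the 48 members were above their unstimulated level, against 47.8% of all genes, and the members' median was -0.25 beside -0.02. With IL-2, 26 of 48 were above it (41.3% of all genes), and the median was 0.02 beside -0.07.

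Set directly against IL-2 at 4 hr, the IL-2-REH library of CD8+ T cells had 7 of 48 members higher, where 61.8% of all genes were, with a median of -0.23 beside 0.08. Past 0.5 were Psmb10 (-0.80), Psmb8 (-0.66), Psmb5 (-0.55) and Psmb9 (-0.50), all lower, where 12.7% of all genes were past it in either direction. At 90 min no member was past 0.5 (3.99% of all genes) and 2 of 48 were higher (29.5%), with a median of -0.16 beside -0.07. For the 31 standard subunits summed, IL-2-REH against IL-2 gave -0.24 at 4 hr in CD8+ T cells and 0.14, -0.09 and 0.45 in the 3 Treg pairs. The immuno genes summed gave -0.65 in CD8+ T cells and 0.08, -0.51 and 0.01 in Treg pairs.

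The CD8+ libraries were also set against the Treg libraries of the same cytokine and time. In unstimulated cells the CD8+ library lay below all 3 Treg libraries for 16 members and above them for 13, where 35.4% and 20.5% of 10457 genes did. Without unstimulated Treg replicate 1 the counts were 19 and 15 (51.6% and 24.3%). At 90 min it lay below for 5 and above for 8 with IL-2 (32.7% and 29.8%), and the counts for IL-2-REH were 13 and 3 (39.7% and 24.4%). At 4 hr of IL-2-REH it lay below for 38 of the 49 and above only for Psme2b and Psmg2, where 40.5% and 23.6% of genes did. At 4 hr of IL-2 the counts were 17 and 10 (33.6% and 22.8%), or 27 and 12 without Treg replicate 3 (48.8% and 26.3%). Psme1 was at 235 RPKM in unstimulated CD8+ T cells, above the 3 Treg libraries, and Psmb4 was at 70.2, inside the 65.7 to 99.6 RPKM of Tregs. The cells came from different strains and were isolated in different ways, which cannot be told apart from cell type here.

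The other genes of the pathway were read from lists. Of 17 proteasome partners 16 were found, and none passed in Tregs. Zfand2a passed at 4 hr of IL-2 with the replicate block (adjusted p = 0.047, with 6.92% of all genes passing), and Adrm1 without unstimulated replicate 1 (0.75, adjusted p = 0.023, with 8.87%). At 4 hr of IL-2 examples were Zfand2a, an arsenite-inducible factor (-1.16, adjusted p = 0.091), Adrm1, a ubiquitin receptor of the 19S particle (0.59, adjusted p = 0.113), and the shuttle factor Ubqln2 (-0.50). Of 10 transcription factors and their regulators none passed, and the largest were Mafg (1.24 ± 0.41, adjusted p = 0.134) and Maff (0.91), small Maf partners of Nfe2l1, then Mafk (-0.61) and Nfe2l1 itself (0.49). Without unstimulated replicate 1, 3 of these passed at 90 min of IL-2 (Bach1, Ddi2 and Nfe2l2, where 12.9% of all genes passed), 3 at 90 min of IL-2-REH (Bach1, Ddi2 and Mafg, where 12.1% did) and Mafg at 4 hr of IL-2 (8.87%). Of 10 ubiquitin and p97 genes none passed, with values of 0.43 for Vcp, which encodes p97, 0.33 for Nploc4 and -0.28 for Ubb. By contrast 4 of 7 IL-2 targets passed at 4 hr of IL-2 and 0 of 7 at 4 hr of IL-2-REH, or 3 with the replicate block.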

How the data were processed

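Poly(A) libraries were sequenced as 50 bp single-end reads. Per the labels and the study's methods, the authors aligned to mm10 with Bowtie2 2.2.6 and TopHat2 2.1.1, used SAMtools 0.1.8, bedtools 2.25.0 and edgeR, and deposited for each RefSeq transcript the counts of uniquely mapped reads on exons and the RPKM made from them. Use of strand is not given in the sources used here. Reads that map to near-copies are lost by unique mapping.

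From these, 1 transcript per symbol was kept of 31682 (the one with most reads). Counts of the 15 Treg libraries were filtered with filterByExpr (15009 genes kept), scaled by TMM and fitted with edgeR 4.0.16 in R 4.3.3, 1 mean per group, with quasi-likelihood tests and Benjamini-Hochberg adjustment over all genes (threshold 0.05). DESeq2 1.42.0 and limma 3.58.1 were alternatives. CD8+ T cells were compared as log2 ratios of RPKM + 1 over 10021 genes with a mean of at least 1 RPKM, and called past 0.5. An interval is the estimate ± 1.96 SE, which is narrower than an interval matched to the edgeR test. The scripts were tested on simulated data. Depth was 20201392 to 63903764 reads on genes.

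All members could be named, with values in every library for the catalytic and immunoproteasome subunits and the 3 members at either end of the range of changes in every comparison. From each list up to 4 genes were named, those with the largest change at 4 hr of IL-2; a few members were named after their values were seen. Members and lists were chosen with earlier results of these data known. Groups and replicate numbers come from the labels. Same-numbered Treg libraries deviated together from their group means in 30 of 30 pairs (r from 0.121 to 0.839), so the fit with the replicate number as a block counts as paired. The SEs, intervals and edgeR adjusted p-values of single genes come from the fit without the block unless it is named, and so do not use the pairing. Promoters and gene positions come from RefSeq tables of GRCm38.p6. Protein sequences were not analysed here. Some genes of the lists are not reported here.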

Additional observations from a re-analysis of the deposited data

Results flagged for a closer look

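Counting only cases in which the CD8+ value and the median of the 3 Treg pairs were both over 0.25 in size, in 4 the single CD8+ library moved one way from its unstimulated library while all 3 same-numbered Treg pairs moved the other way, on the log2 ratio of RPKM + 1. With IL-2 at 4 hr the base chaperone Psmd9 was at -0.42 in CD8+ T cells and at 0.07 to 1.18 in Tregs. With IL-2-REH at 4 hr it was at -0.38 and 0.02 to 0.76. With IL-2-REH at 4 hr the catalytic subunit Psmb6 was at -0.26 in CD8+ T cells and 0.17 to 1.0 in Tregs, and the lid subunit Psmd8 at -0.41 and 0.08 to 0.59. Whatever the size, such opposite signs were seen for 5 of 49 members with IL-2 at 4 hr, 17 at 4 hr of IL-2-REH and 0 at 90 min of either. The share of all genes with such opposite signs is not given here, so these counts cannot be read as particular to the members. The differences between cell types were not tested, since CD8+ groups hold 1 library each.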

How the results depend on the processing

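The count of members passing in Tregs was 0 with the replicate block, with DESeq2 and with limma in every comparison. Leaving out libraries gave 0 to 4 members at 90 min of IL-2, 0 to 10 at 4 hr of IL-2, 0 to 5 at 90 min of IL-2-REH and 0 to 7 at 4 hr of IL-2-REH, the highest counts in each case with the block and without unstimulated replicate 1. It gave 0 to 1 from 90 min to 4 hr with each cytokine, and 0 to 0 for IL-2-REH against IL-2 at both times and for the interaction. The shares of all genes in these last fits are not given here. Without both libraries that stood apart the counts were 3, 0, 1 and 2 in the order above, where 17.9%, 7.27%, 16.7% and 11.1% of all genes passed. The fits that leave out single libraries, or libraries together with the block, were chosen after seeing the data; the causes were not tested. In CD8+ T cells an absolute log2 ratio above 1 left 0 members at 90 min and 0 at 4 hr of IL-2 (7.24% and 4.71% of all genes). With IL-2-REH it left 3 at 90 min (Psmb9, Psmb10, Psmg1) and 0 at 4 hr (8.57% and 6.11%). For IL-2-REH against IL-2 at 4 hr it left 0 (2.23%). A pseudocount of 0.1 gave 2 at 4 hr of IL-2 (Psmg3 as well as Psmg1, 26.9% of all genes). It gave 1 for IL-2-REH against IL-2 at 90 min (Psmg4, 5.41%). Centering on the median of all genes gave 2 at 4 hr of IL-2 (20.3%) and 7 for IL-2-REH against IL-2 at 4 hr (12.3%). The ratio of immuno to constitutive catalytic genes moved by less than the spread between replicates, and without 1 library it was 1.60 to 2.24 in unstimulated Tregs, where replicate 1 was low. Low counts limit Psma8, Psmb11 and Psmc3ip.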
